A study of Mus musculus with 28 samples.

Results

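The 8 genes described here are the mitochondrially encoded respiratory chain genes of a table of 1024 genes measured in 28 single neurons of the mouse primary motor cortex (M1). They were chosen by a rule on names, as every row whose gene symbol starts with mt-Nd, mt-Co, mt-Cytb or mt-Atp. The choice was made with earlier results of these data known. The rule found mt-Nd1, mt-Nd2, mt-Nd4, mt-Nd5, mt-Nd6, mt-Cytb, mt-Co1 and mt-Atp8, which are 8 of the 13 protein-coding genes annotated on the mouse mitochondrial chromosome. The other 5 are not among the genes of the table.

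All animals were CD1 mice. At embryonic day 15 each embryo was electroporated in utero, towards M1, with 3 plasmids: pCAGIG, which labels electroporated cells with GFP, pHSE-FLPo, in which a heat shock response element drives the recombinase FLPo, and pFRT-RFP, a red reporter that FLPo switches on. RFP therefore reports past activity of the heat shock element in the electroporated cells. Dams were injected intraperitoneally on embryonic days 16 and 17 with ethanol (EtOH) in phosphate-buffered saline (PBS) or with PBS alone, and the contents of live neurons were collected at postnatal day 30. The neurons comprised 15 GFP-positive and RFP-positive EtOH neurons, 7 GFP-positive and RFP-negative EtOH neurons, and 6 GFP-positive neurons of PBS-exposed mice, which were also RFP-negative. Whether the dam of a given neuron received 4.0 or 1.0 g/kg ethanol, and which animal the neuron came from, are not stated, and there was no RFP-positive PBS group. Because no animal is named, each group counts as 1 sample. Differences between groups are therefore given as differences of means with the SD across neurons and without p-values.

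The mitochondrial chromosome is transcribed from both strands into long precursors. These are cut at the tRNAs that lie between most of the coding genes, so that neighbouring messengers start out on a shared molecule and can then differ in stability. The encoded proteins are core membrane subunits of complex I (the Nd genes), complex III (Cytb), complex IV (Co genes) and ATP synthase (Atp genes), which together with nuclear-encoded subunits carry out oxidative phosphorylation, the main source of ATP in neurons.

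All 8 genes lie on chromosome M of GRCm38. mt-Nd1 (ENSMUSG00000064341) extends from 2751 to 3707, mt-Nd2 (ENSMUSG00000064345) from 3914 to 4951, and mt-Co1 (ENSMUSG00000064351) from 5328 to 6872. mt-Atp8 (ENSMUSG00000064356) extends from 7766 to 7969, mt-Nd4 (ENSMUSG00000064363) from 10167 to 11544, and mt-Nd5 (ENSMUSG00000064367) from 11742 to 13565. mt-Cytb (ENSMUSG00000064370) extends from 14145 to 15288. These 7 genes are on the plus strand, whereas mt-Nd6 (ENSMUSG00000064368) lies on the minus strand from 13552 to 14070. The transcripts have no introns and are between 204 bases (mt-Atp8) and 1824 bases (mt-Nd5) long, and their GC content is between 31.9% (mt-Atp8) and 39.9% (mt-Co1).

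Overlaps between neighbours decide which reads can be given to which gene. The last 14 bases of mt-Nd5 and of mt-Nd6 are complementary, and the libraries carry no strand information, as SMARTer cDNA cut with Nextera transposase does not mark it. Reads anywhere in mt-Nd6 therefore cannot be told from those of plus-strand RNA running past the annotated end of mt-Nd5. Whether the overlap or such reads bear on the co-variation of the pair, described below, was not tested. The 3′ ends of both transcripts (GENCODE M21, GRCm38, 50 bases each, overlap in capitals) are shown.
mt-Nd5: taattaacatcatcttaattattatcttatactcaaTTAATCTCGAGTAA
mt-Nd6: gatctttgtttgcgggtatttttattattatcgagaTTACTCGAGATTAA
The shortest member, mt-Atp8, shares its last 43 bases with the start of mt-Atp6 on the same strand. The whole transcript is shown with that stretch in capitals.
mt-Atp8: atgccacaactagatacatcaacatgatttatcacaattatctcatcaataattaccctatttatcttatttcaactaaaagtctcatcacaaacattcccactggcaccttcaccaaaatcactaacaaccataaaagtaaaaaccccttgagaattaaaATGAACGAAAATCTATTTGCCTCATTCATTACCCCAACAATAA
The other overlaps are 2 bases between mt-Nd1 and mt-Ti, 2 bases between mt-Nd2 and mt-Tw, 7 bases between mt-Nd4 and mt-Nd4l, and 3 bases between mt-Co1 and mt-Ts1 on the opposite strand.

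Nuclear copies of mitochondrial DNA bear on the values as well. Every window of 51 bases, the length of the reads, was looked up in the annotated transcripts that resemble a member. Of the windows of mt-Nd4, 826 of 1328 (62.2%) occurred unchanged in Gm28439, an unprocessed pseudogene on chromosome 1 (24611535 to 24612410). Of those of mt-Co1, 757 of 1495 (50.6%) occurred in Gm29216, Gm13340 or Gm11512. The share was 7.996% for mt-Nd2 and 7.22% for mt-Nd5, and no window of mt-Nd1, mt-Nd6, mt-Cytb or mt-Atp8 was found. Only annotated transcripts were searched. The last 43 bases of mt-Atp8, fewer than a read, also occurred unchanged in Gm10925 on chromosome 1 (24613974 to 24614651). Sequence outside annotated transcripts between Gm10925 and Gm29216 (24615706 to 24616197) was not searched, so a longer copy of mt-Atp8 there would be missed. None of the copies found is a gene of the table, and the sources used here do not say how reads with several matches were counted. The values of mt-Nd4 and mt-Co1 are uncertain for that reason, and the search cannot tell whether this also holds for mt-Atp8. The closest partial copy of mt-Co1 is shown beside it over 51 bases around the only differing base of the aligned stretch, in capitals.
mt-Co1: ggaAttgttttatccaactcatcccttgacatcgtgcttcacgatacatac
Gm29216: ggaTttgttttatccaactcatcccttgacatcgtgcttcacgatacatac
For comparison, a window of mt-Nd6 and of its copy Gm11408 on chromosome 4 holds 9 differing bases, also in capitals.
mt-Nd6: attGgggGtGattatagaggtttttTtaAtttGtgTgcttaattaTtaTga
Gm11408: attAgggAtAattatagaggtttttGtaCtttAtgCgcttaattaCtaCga

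The deposited values are logarithms, read here as log2, and whether they are corrected for transcript length is not stated, so levels are not ranked between genes. Read totals per neuron are not part of the table, and the depth is unknown. The 224 values of the 8 genes ran from 1.89 to 12.5, with more of them at or below 4 or above 8 than between. Of these values, 71 (31.7%) were at or below 4, 47 (20.98%) lay between 4 and 8, and 106 (47.3%) lay above 8. In all 1024 genes the shares were 66.3%, 18.3% and 15.4%. Values above 4 are called high in the following. No gap separates the values at this limit, with 30 of them between 3 and 4 and 12 between 4 and 5. A low value does not show that the transcript was missing. Of the 8 genes, 6 were high in all 6 PBS neurons, beside 3.91% of all genes. All but mt-Nd5 were high in at least 5 of them, beside 9.08% of all genes.

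**Figure D1:**
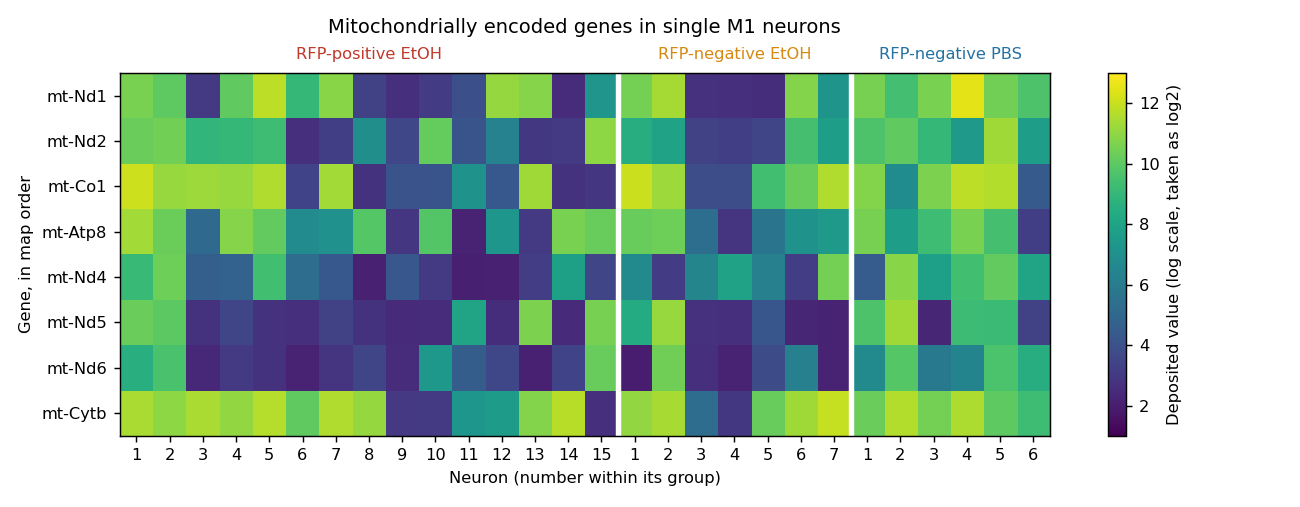
Deposited value (colour, log scale taken as log2) of the 8 genes, in map order from top to bottom, in each of 28 neurons, numbered within their group. The PBS columns are mostly green to yellow, whereas dark cells, which reach down to 1.89, are scattered over the columns of both EtOH groups and rarely fill a whole column.

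The number of genes of the 8 that were high in a neuron was 2 to 8 (median 5) in RFP-positive EtOH neurons, 1 to 7 (median 6) in RFP-negative EtOH neurons and 6 to 8 (median 8) in PBS neurons. All 8 were high in 2 of 15 RFP-positive EtOH, 0 of 7 RFP-negative EtOH and 4 of 6 PBS neurons. At least 6 were high in 4 of 15 RFP-positive EtOH neurons (26.7%, 95% exact interval 7.79 to 55.1%), in 4 of 7 RFP-negative EtOH neurons (57.1%, 18.4 to 90.1%) and in 6 of 6 PBS neurons (54.1 to 100%). These Clopper-Pearson intervals cover counting error only and take neurons as independent, although no animal is named. All 3 overlap, which is not a comparison of the groups. The means were 4.87 ± 1.68 (SD, n = 15) in RFP-positive EtOH, 5.00 ± 2.24 (SD, n = 7) in RFP-negative EtOH and 7.50 ± 0.84 (SD, n = 6) in PBS neurons. The neuron with the fewest high members was RFP-negative EtOH neuron 4, in which only mt-Nd4 was high, at 7.92. In RFP-positive EtOH neuron 9 all 8 values lay between 2.49 and 4.25, although 344 genes of the table were high in it, within the range of 273 to 434 across its group.

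The median of the 8 genes in a neuron summarises them as 1 value. It was 2.95 to 10.4 in RFP-positive EtOH neurons, 2.87 to 10.8 in RFP-negative EtOH neurons and 7.85 to 10.1 in PBS neurons, with group medians of 5.33, 7.59 and 9.96. The ranges overlapped, since several EtOH neurons reached the PBS level, while no PBS neuron came near the low end of either EtOH group. The number of high genes in the whole table did not follow the same order, with medians of 357, 327 and 323.5. Pearson's r across the 28 neurons between the median of the 8 genes and the number of high genes was 0.15, and with the upper quartile of a neuron's values 0.22. Both are descriptions over neurons that share groups and library preparation.

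Of the 28 neurons, 4 stood apart in how often a value was exactly equal to another neuron's value of the same gene. This held for 1 value in each of the 4 and for 7 to 17 values in each of the other 24. They were RFP-positive EtOH neurons 1 and 2, RFP-negative EtOH neuron 1 and PBS neuron 6. RFP-positive EtOH neurons 1 and 2 are the only ones of their group in which all 8 genes were high, and PBS neuron 6 had the fewest high members of its group, 6. Values without these 4 neurons are given beside the results that they move.

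**Figure D2:**
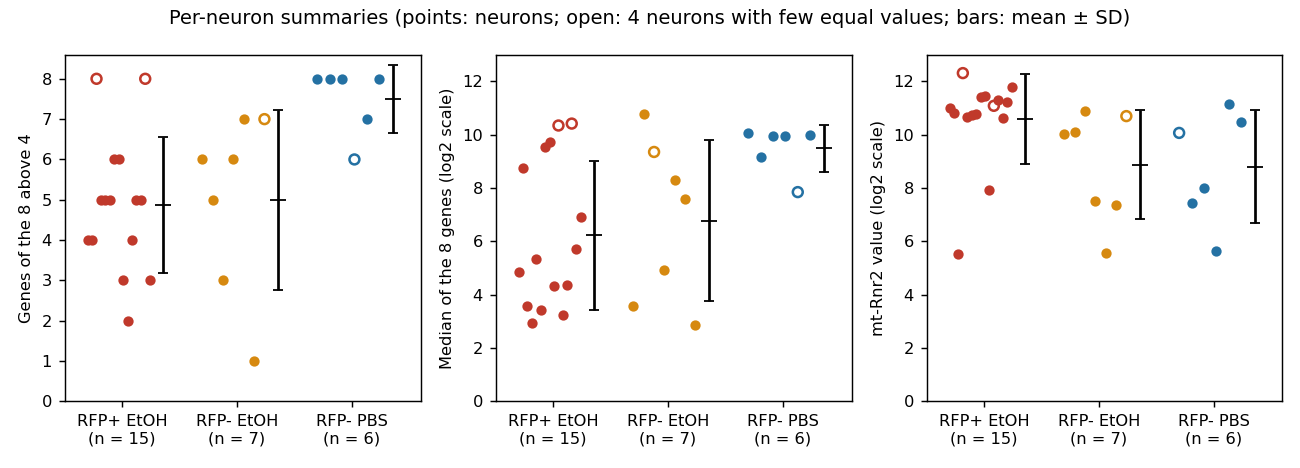
Points are neurons of the 3 groups: genes of the 8 above 4 (left), median of the 8 genes (middle) and value of mt-Rnr2 (right), the last 2 on the log2 scale, with bars for mean ± SD and open circles for the 4 neurons with few exactly equal values. PBS neurons hold 6 to 8 high genes, EtOH neurons 1 to 8, and mt-Rnr2 is above 4 in every neuron.

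Complex I, the entry point of electrons from NADH, is represented by 5 members. mt-Nd1, a membrane arm subunit near the quinone site, was 2.53 to 11.8 (median 8.98) in RFP-positive EtOH neurons, 2.55 to 11.4 (median 7.20) in RFP-negative EtOH neurons and 9.41 to 12.5 (median 10.5) in PBS neurons. It was bimodal, with no neuron between 3.94 and 7.20. It was high in 9 of 15 RFP-positive EtOH, 4 of 7 RFP-negative EtOH and 6 of 6 PBS neurons, so the EtOH groups contained neurons at the PBS level and neurons far below it.

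mt-Nd2, another subunit of the membrane arm, was 2.65 to 10.96 (median 6.91) in RFP-positive EtOH neurons, 3.25 to 9.47 (median 7.68) in RFP-negative EtOH neurons and 7.50 to 11.3 (median 9.33) in PBS neurons. mt-Nd4, a proton-pumping subunit, was 2.05 to 10.4 (median 4.33) in RFP-positive EtOH neurons, 3.12 to 10.5 (median 6.45) in RFP-negative EtOH neurons and 4.47 to 10.9 (median 8.68) in PBS neurons. Both were high in all 6 PBS neurons. mt-Nd2 was high in 10 of 15 RFP-positive and 4 of 7 RFP-negative EtOH neurons, and mt-Nd4 in 9 of 15 and 5 of 7.

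mt-Nd5, the proton-pumping subunit at the far end of the membrane arm, was 2.47 to 10.6 (median 2.77) in RFP-positive EtOH neurons, 2.18 to 11.2 (median 2.696) in RFP-negative EtOH neurons and 2.30 to 11.3 (median 9.20) in PBS neurons. It was the only member that was low in as many as 2 PBS neurons, and it was high in 5 of 15 RFP-positive and 3 of 7 RFP-negative EtOH neurons. mt-Nd6, the only protein-coding gene of the minus strand, was 2.10 to 10.2 (median 3.43) in RFP-positive EtOH neurons, 1.89 to 10.4 (median 2.59) in RFP-negative EtOH neurons and 5.83 to 9.83 (median 7.62) in PBS neurons. It was high in 5 of 15 RFP-positive EtOH neurons (33.3%, 95% exact interval 11.8 to 61.6%), in 2 of 7 RFP-negative EtOH neurons (28.6%, 3.67 to 71.0%) and in 6 of 6 PBS neurons (54.1 to 100%). The intervals cover counting error only and take neurons as independent. Those of both EtOH groups overlap that of the PBS group, which is not a comparison of the groups.

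Complex III, which passes electrons from ubiquinol to cytochrome c, is represented by mt-Cytb. It was 2.65 to 11.7 (median 10.98) in RFP-positive EtOH neurons, 2.95 to 11.96 (median 11.04) in RFP-negative EtOH neurons and 9.27 to 11.6 (median 10.4) in PBS neurons. Most EtOH neurons lay at the PBS level or above it. The low neurons were 3 of 15 RFP-positive and 1 of 7 RFP-negative EtOH neurons, all at or below 3.03.

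mt-Co1, the catalytic subunit of complex IV that reduces oxygen, was 2.74 to 12.1 (median 7.10) in RFP-positive EtOH neurons, 3.82 to 12.1 (median 10.2) in RFP-negative EtOH neurons and 4.39 to 11.8 (median 10.7) in PBS neurons. Of the RFP-positive EtOH neurons, 7 of 15 were above 8, against 5 of 7 RFP-negative EtOH and 4 of 6 PBS neurons. mt-Atp8, a small membrane subunit of ATP synthase, was 2.15 to 11.3 (median 9.80) in RFP-positive EtOH neurons, 2.80 to 10.4 (median 7.12) in RFP-negative EtOH neurons and 3.24 to 10.6 (median 9.38) in PBS neurons. It was high in 12 of 15, 6 of 7 and 5 of 6 neurons, and all 3 groups held at least 1 low neuron.

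**Figure D3:**
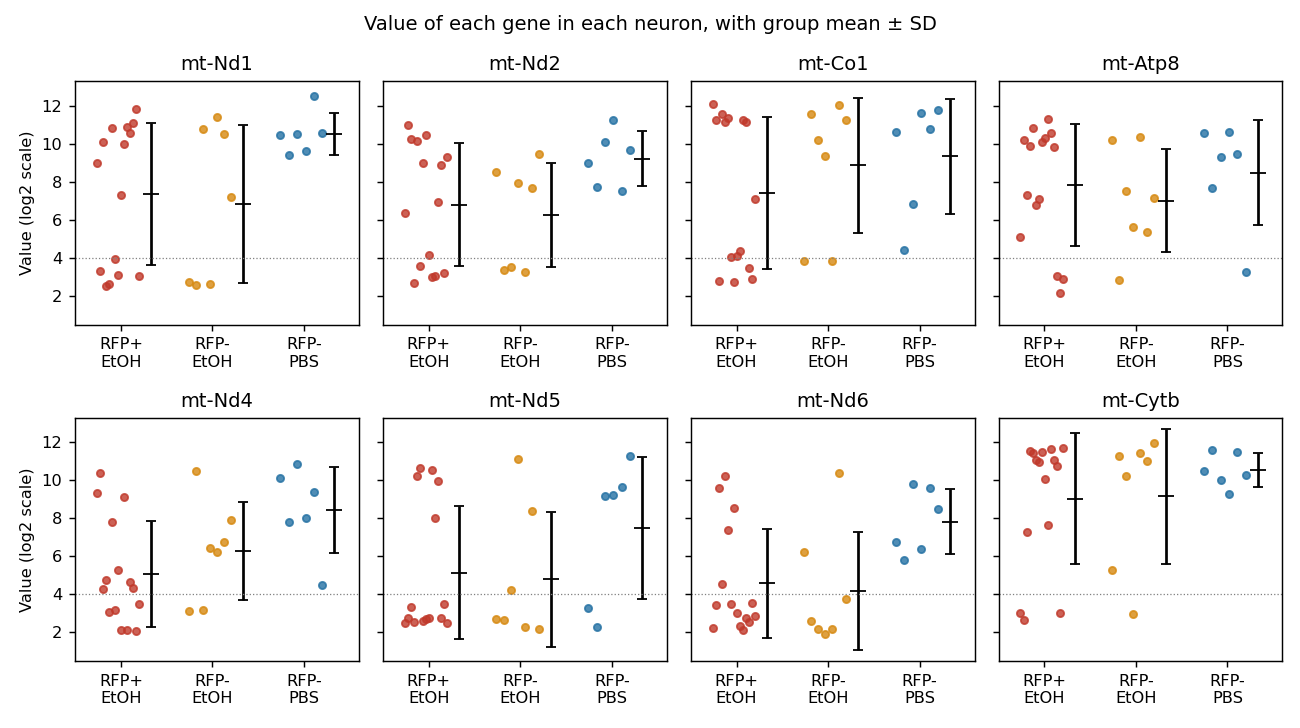
Value of each of the 8 genes on the log2 scale in each neuron (points) of the RFP-positive EtOH, RFP-negative EtOH and RFP-negative PBS groups, with the mean ± SD beside each group and a dotted line at 4. mt-Nd1, mt-Nd2 and mt-Nd6 show no PBS neuron below the line, and both EtOH groups show a second cloud of neurons below it.

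Setting RFP-negative EtOH neurons against PBS neurons asks about exposure in cells without reporter activity. The mean was lower in EtOH neurons for 8 of 8 genes, beside 51.5% of all genes, and lower by at least 1 for 7 of 8, beside 26.8% of all genes. It was higher by at least 1 for 0 of 8, beside 23.8% of all genes. The median difference of the 8 genes was -2.41, beside -0.06 for all genes. mt-Nd1 averaged 6.82 ± 4.14 in EtOH and 10.5 ± 1.10 in PBS neurons (SD, n = 7 and 6), a difference of -3.70. For mt-Nd6 the difference was -3.65, between 4.17 ± 3.12 in EtOH and 7.82 ± 1.72 in PBS neurons. mt-Nd2, mt-Nd5 and mt-Nd4 differed by -2.97, -2.69 and -2.13. mt-Atp8, mt-Cytb and mt-Co1 differed by -1.47, -1.36 and -0.46. Only the differences of mt-Nd2 and mt-Nd6 were larger than the SD of the EtOH group.

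Single neurons decided the smaller differences. Without RFP-negative EtOH neuron 4 the differences of mt-Cytb and mt-Atp8 were -0.33 and -0.77, and without RFP-negative EtOH neuron 3 that of mt-Cytb was -0.72. Without PBS neuron 6 that of mt-Atp8 was -2.52. The sign of the mt-Co1 difference also rested on single neurons. It was 0.38 without RFP-negative EtOH neuron 3 or neuron 4, 0.03 without PBS neuron 4 and -1.45 without PBS neuron 6. The count of genes lower by at least 1 was 5 without RFP-negative EtOH neuron 4 and 8 without PBS neuron 6. Without the 4 neurons that stood apart, 8 of 8 means were lower by at least 1, with differences of -4.13 for mt-Nd5, -3.06 for mt-Atp8 and -1.98 for mt-Co1. Without the neurons in which the interneuron gene Gad1 was high, 5 of 8 were, and mt-Cytb, mt-Atp8 and mt-Co1 differed by -0.48, -0.31 and 0.50.

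The difference of the per-neuron medians was -2.73 (6.77 ± 3.01 in RFP-negative EtOH and 9.49 ± 0.88 in PBS neurons), and -3.49 without the 4 neurons that stood apart. When arithmetic means of the values turned back from the log scale were compared, it was -0.94, and these means weight the neurons at the high level most. When the neurons were brought to a common upper quartile, all differences shifted by 0.55. The median over all genes was then 0.49, the difference of the per-neuron medians was -2.17, and 5 of 8 means were lower by at least 1, with mt-Co1 at 0.09.

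RFP-positive EtOH neurons were also set against PBS neurons, a comparison that shares the PBS neurons with the one above. The mean was lower in RFP-positive EtOH neurons for 8 of 8 genes, beside 43.5% of all genes, and lower by at least 1 for 7 of 8, beside 19.2% of all genes. It was higher by at least 1 for 0 of 8, beside 24.9% of all genes. The median difference was -2.38, beside 0.26 for all genes. mt-Nd4 averaged 5.06 ± 2.79 in RFP-positive EtOH and 8.43 ± 2.28 in PBS neurons (SD, n = 15 and 6), a difference of -3.37. mt-Nd6, mt-Nd1, mt-Nd2 and mt-Nd5 differed by -3.25, -3.18, -2.42 and -2.34. mt-Co1 and mt-Cytb differed by -1.92 and -1.496, and mt-Atp8 by -0.65.

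Without PBS neuron 6 the differences of mt-Co1 and mt-Atp8 were -2.91 and -1.69, and leaving out other single neurons put that of mt-Atp8 as close to 0 as -0.22. With group medians in place of means mt-Atp8 differed by 0.42. Without the 4 neurons that stood apart all 8 differences were at least 1 in size, among them -3.94 for mt-Nd5, -3.55 for mt-Co1 and -2.15 for mt-Atp8. The difference of the per-neuron medians was -3.26 (6.23 ± 2.79 in RFP-positive EtOH and 9.49 ± 0.88 in PBS neurons), -4.23 without those 4 neurons, and -1.28 with arithmetic means.

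Between RFP-positive and RFP-negative EtOH neurons, which asks how neurons with past reporter activity differ after the same kind of exposure, the 8 genes did not move one way. Of the 8 means, 5 were higher and 3 lower in RFP-positive neurons, where 40.0% of all genes were lower. It was lower by at least 1 for 2 of 8 genes, beside 15.7% of all genes, and higher by at least 1 for 0 of 8, beside 26.3%. The difference of mt-Co1 was -1.46, with means of 7.42 ± 4.00 (SD, n = 15) for RFP-positive and 8.87 ± 3.56 (SD, n = 7) for RFP-negative neurons, and that of mt-Nd4 was -1.24. Both were smaller than either SD. The mt-Co1 difference was -0.92 without RFP-negative EtOH neuron 1, and -2.30 without neuron 3 or neuron 4 of that group. The mt-Nd4 difference was -0.97 without RFP-negative EtOH neuron 4, -0.54 without neuron 7, and -1.89 without the 4 neurons that stood apart. The other 6 lay between -0.13 (mt-Cytb) and 0.83 (mt-Atp8), where the median of all genes was 0.31. The difference of the per-neuron medians was -0.54, smaller than the SDs of 2.79 and 3.01, and it ranged from -1.19 to 0.13 when single neurons were left out. These directions were not stable. Without the neurons with high Gad1 all 8 differences were below 0, from -0.03 (mt-Nd4) to -1.59 (mt-Co1), and at a common upper quartile, which shifts this comparison by -0.51, mt-Nd5 and mt-Nd6 were below 0 as well. Leaving out single neurons turned the sign of mt-Nd1, mt-Nd5, mt-Nd6 or mt-Cytb, with values between -0.19 and 0.33.

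**Figure D4:**
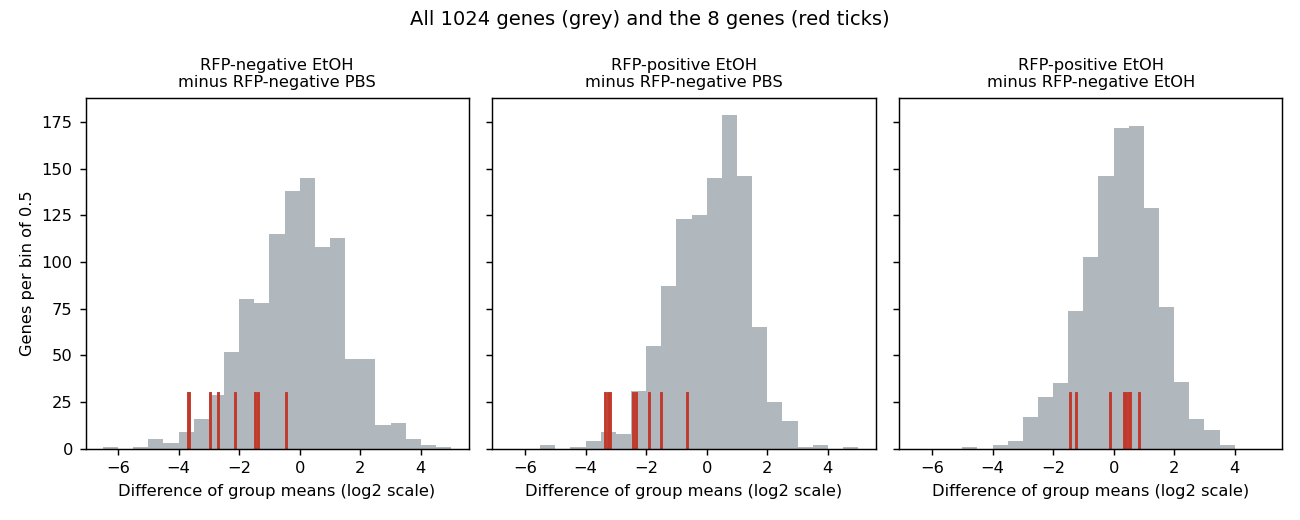
Distribution of the difference of group means (log2 scale) over all 1024 genes (grey) with the 8 mitochondrial genes as red ticks, for RFP-negative EtOH minus PBS, RFP-positive EtOH minus PBS and RFP-positive minus RFP-negative EtOH neurons. All 8 ticks are below 0 in the first 2 panels, which share the PBS neurons (mt-Co1 in the first is at 0.09 with a common upper quartile), and they lie on both sides of 0 in the last one, between -1.46 and 0.83.

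Markers of other cell types were examined beside these differences. Of the fixed markers, 2 of 8 for pyramidal neurons (Nrgn and Mef2c), 1 of 6 for interneurons (Gad1), 2 of 8 for astrocytes (Slc1a2 and Aldoc) and 2 of 8 for microglia (Csf1r and Cst3) were in the table, and oligodendrocytes are described by Mbp. At least 1 pyramidal marker was high in all 28 neurons, and Gad1 was high in 3 of 15, 2 of 7 and 1 of 6 neurons. The PBS neuron with high Gad1 was neuron 4, at 13.2, the highest value of all genes and neurons. Nrgn was high in 27 of 28 neurons and low only in this PBS neuron, at 3.13, so that Mef2c was its only high pyramidal marker. Whether PBS neuron 4 was an interneuron was not tested. The myelin gene Mbp was 2.19 to 8.48 in RFP-positive EtOH, 2.09 to 8.26 in RFP-negative EtOH and 2.1997 to 10.6 in PBS neurons, and it was high in 4 of 15, 1 of 7 and 4 of 6 of them. The log2 of the summed astrocyte markers was 2.72 to 10.2, 2.56 to 9.03 and 3.07 to 9.79 in the same order, with at least 1 marker high in 9 of 15, 3 of 7 and 5 of 6 neurons. The log2 of the summed microglial markers was 2.77 to 10.5, 3.17 to 11.4 and 3.04 to 8.35.

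Across the 28 neurons, Pearson's r with the median of the 8 genes was 0.38 for Mbp, 0.25 for Slc1a2, 0.13 for Aldoc, 0.02 for Csf1r, -0.04 for Cst3, -0.27 for Nrgn and 0.05 for Mef2c. Without the neurons in which Mbp was high, which leaves 11 RFP-positive EtOH, 6 RFP-negative EtOH and only 2 PBS neurons, the difference of the per-neuron medians was -3.58 for RFP-positive EtOH and -3.22 for RFP-negative EtOH neurons against PBS neurons. Single genes moved in both directions there. Against PBS neurons, RFP-negative EtOH neurons differed by 0.10 for mt-Nd4, -1.74 for mt-Nd6, -1.77 for mt-Nd5, -2.35 for mt-Co1 and -3.46 for mt-Atp8, and RFP-positive EtOH neurons by -0.58 for mt-Nd5. The part of glial RNA in the differences of the per-neuron medians and of single genes was not tested.

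The table also holds 3 mitochondrial genes that are not translated. Copies of these were not searched for, so how far their values hold reads shared with other genes is unknown. mt-Rnr2, the 16S ribosomal RNA, was high in 28 of 28 neurons, also where few of the 8 coding genes were. It averaged 10.6 ± 1.69 in RFP-positive EtOH, 8.88 ± 2.06 in RFP-negative EtOH and 8.79 ± 2.12 in PBS neurons, so that RFP-positive EtOH neurons had the highest mean, by 1.70 against RFP-negative EtOH and by 1.78 against PBS neurons. The difference against PBS neurons was 1.15 without PBS neuron 1. Without the neurons with high Mbp, which leaves 2 PBS neurons, mt-Rnr2 differed by 4.05 in RFP-positive EtOH and by 2.04 in RFP-negative EtOH neurons against PBS neurons. mt-Rnr1, the 12S ribosomal RNA, averaged 7.41 ± 3.30, 5.79 ± 2.69 and 8.47 ± 2.49 in the same order. Its difference against PBS neurons was -2.68 in RFP-negative EtOH and -1.07 in RFP-positive EtOH neurons. This last value ranged from -1.92 without PBS neuron 1 to -0.68 without PBS neuron 5, and it was under 1 in size when any of RFP-positive EtOH neurons 7, 9, 10, 11 and 13 or PBS neurons 2, 4, 5 and 6 was left out. mt-Ts1, a serine tRNA gene on the minus strand that meets the end of mt-Co1, averaged 6.60 ± 2.35, 5.78 ± 2.80 and 7.46 ± 2.19. As the libraries carry no strand information, its reads cannot be told from those of an mt-Co1 transcript running past its annotated end.

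Co-variation between the genes was described over all 28 neurons. The median of Pearson's r over the 28 pairs of the 8 genes was 0.36, and r was positive in 27 pairs and at least 0.3 in 17 (60.7%). Over all 523776 pairs of genes of the table the median was -0.01 and 8.66% reached 0.3. The points share library preparation, depth and group differences. With each gene taken as its deviation from its group means the median over the 28 pairs was 0.30, without the 4 neurons that stood apart it was 0.28, and within RFP-positive EtOH neurons, RFP-negative EtOH neurons and PBS neurons alone it was 0.30, 0.53 and 0.30.

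The pairs were far from uniform. The highest values were 0.67 for mt-Nd2 with mt-Nd6, 0.65 for mt-Cytb with mt-Co1, 0.62 for mt-Nd5 with mt-Nd6, 0.62 for mt-Nd2 with mt-Atp8 and 0.60 for mt-Nd1 with mt-Co1. The lowest were 0.00 for mt-Nd6 with mt-Cytb and 0.08 for mt-Nd6 with mt-Co1. mt-Nd6 was high in 13 neurons, and mt-Nd2 was high in all 13 of them, while 7 neurons had mt-Nd2 high alone. mt-Nd5 and mt-Nd6, whose transcripts overlap at their ends as shown above, were both high in 9 neurons and both low in 12, with mt-Nd5 alone high in 3 and mt-Nd6 alone in 4. mt-Cytb and mt-Co1 were both high in 20 neurons and both low in 2.

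Neighbours on the chromosome were not the most alike throughout. From mt-Nd1 onwards r was 0.43 with mt-Nd2 across a gap of 206 bases, 0.38 between mt-Nd2 and mt-Co1 across 376 bases, 0.30 between mt-Co1 and mt-Atp8 across 893 bases and 0.23 between mt-Atp8 and mt-Nd4 across 2197 bases. It was 0.15 between mt-Nd4 and mt-Nd5, which lie 197 bases apart. mt-Nd6 and mt-Cytb lie 74 bases apart on opposite strands, at an r of 0.00. mt-Nd4 had the lowest median r with the other 7 genes, 0.23, where the remaining 7 lay between 0.32 (mt-Cytb) and 0.43 (mt-Nd1).

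**Figure D5:**
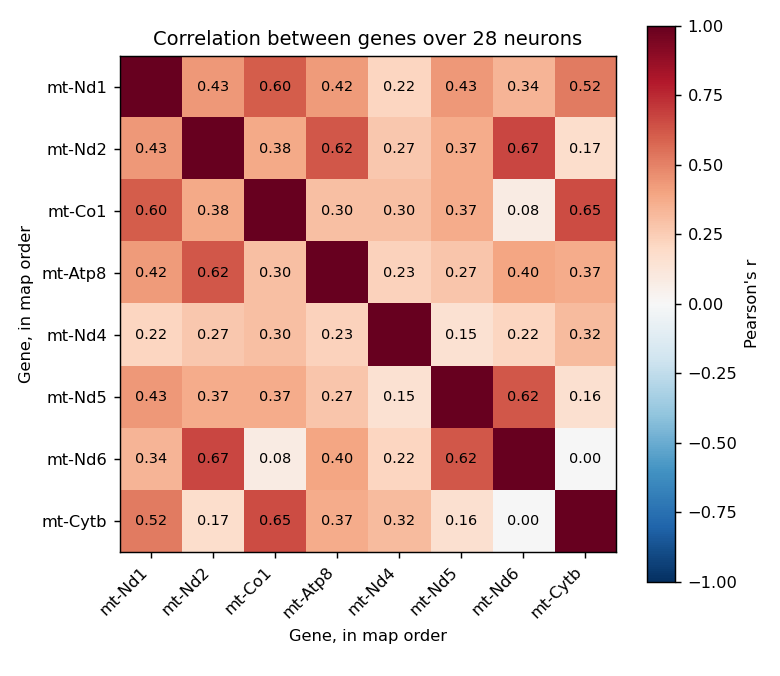
Pearson's r between each pair of the 8 genes over 28 neurons, with genes in map order on both axes and the colour scale from -1 to 1. The largest values stand at mt-Nd2 with mt-Nd6 (0.67) and mt-Cytb with mt-Co1 (0.65), and mt-Nd6 is near 0 with mt-Cytb and mt-Co1.

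Individual neurons show how the genes part from each other. In RFP-positive EtOH neuron 15, mt-Nd2, mt-Nd5, mt-Nd6 and mt-Atp8 were at 10.96, 10.5, 10.2 and 10.2, while mt-Cytb and mt-Co1 were at 2.65 and 2.89. In RFP-positive EtOH neuron 14, mt-Cytb and mt-Atp8 were at 11.7 and 10.6, while mt-Nd1 and mt-Co1 were at 2.53 and 2.74. High and low members thus occurred side by side in the same library.

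Outside the 8 genes, the pattern across 28 neurons most like their median was that of mt-Ts1, with an r of 0.65. It was followed by the superoxide dismutase gene Sod1 (0.62), Cisd1, which encodes an iron-sulfur protein of the outer mitochondrial membrane (0.53), the ribosomal protein gene Rpl41 (0.51) and the dynein heavy chain gene Dync1h1 (0.48). The most opposite were Dnajc6, which encodes the clathrin-uncoating protein auxilin (-0.53), Zfp638 (-0.52), Morf4l1 (-0.50), the reelin pathway adaptor gene Dab1 (-0.49) and Bzw1 (-0.49). These were the extremes of 590 genes that were high in at least 7 neurons and whose symbol is not that of a predicted gene or clone or Xist. Their median r was 0.03, with 4 genes at or above 0.5 and 3 at or below -0.5. Each of the 8 genes had a positive r with mt-Ts1, between 0.23 (mt-Nd4) and 0.56 (mt-Nd2). The values of mt-Ts1 may hold reads of a longer mt-Co1 transcript, which the libraries cannot separate by strand. With mt-Rnr2 r was between -0.02 (mt-Nd4) and 0.39 (mt-Nd2), and with mt-Rnr1 between -0.05 (mt-Co1) and 0.50 (mt-Nd2).

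The nuclear-encoded subunits of the same complexes, of which 23 were in the table, showed little co-variation with the mitochondrial genes. Over the 184 pairs of a mitochondrial and a nuclear gene the median r was 0.06 and 6.52% reached 0.3, close to the 8.66% of all pairs of genes. The number of these 23 genes that were high was 5 to 19 (median 11) in RFP-positive EtOH neurons, 10 to 19 (median 16) in RFP-negative EtOH neurons and 10 to 19 (median 12.5) in PBS neurons. RFP-negative EtOH neurons thus had the highest median for the nuclear subunits, whereas PBS neurons had it for the mitochondrial ones. In RFP-negative EtOH neuron 4, where 1 mitochondrial gene was high, 18 of the 23 nuclear genes were.

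Against PBS neurons, RFP-negative EtOH neurons had higher means for 15 and lower means for 8 of the 23 genes, where 48.5% of all genes had higher means. The means were higher by at least 1 for 8 and lower by at least 1 for 3 of them, beside 23.8% and 26.8% of all genes. The median difference was 0.19. In complex I, Ndufv1, an NADH-binding subunit, differed by -3.82, while the subunits Ndufs1 and Ndufb7 differed by 3.05 and 2.93. In complex III, Uqcrh and Uqcrc1 differed by 0.94 and -0.55, and the electron carrier Cycs differed by 2.12. All 6 complex IV genes had higher means in RFP-negative EtOH neurons, beside 48.5% of all genes, among them Cox4i1 at 3.64, Cox6a1 at 2.51 and Cox5b at 1.39. In ATP synthase, Atp5a1 differed by -3.24, Atp5d by 1.65 and Atp5g1 by -0.95. RFP-positive EtOH against PBS neurons gave 12 higher and 11 lower means, where 43.5% of all genes had lower means. The median was 0.18, beside 0.26 for all genes. RFP-positive against RFP-negative EtOH neurons gave 7 higher and 16 lower means, where 40.0% of all genes had lower means. That median was -0.66, beside 0.31 for all genes.

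For mitochondrial gene expression, the lists fixed by gene name held 1 gene of RNA handling and 1 of translation. They do not cover every such gene of the table. Lrpprc, which stabilises mitochondrial messengers, averaged 3.70 ± 2.84 in RFP-positive EtOH, 2.07 ± 0.45 in RFP-negative EtOH and 1.96 ± 0.63 in PBS neurons, and was high in 5 of 15, 0 of 7 and 0 of 6 neurons. Gfm2, a factor of mitochondrial ribosome recycling, was high in 5 of 15, 0 of 7 and 1 of 6 neurons. For RFP-negative EtOH against PBS neurons, the import receptor Tomm70a and the mitochondrial chaperone Trap1 differed by -1.68 and 0.13, and the fission genes Fis1 and Mff and the mitophagy receptor gene Bnip3l by 1.71, 1.41 and -0.85. The ADP/ATP carriers Slc25a4 and Slc25a5 differed by 3.73 and -1.05, and the citrate cycle genes Mdh2 and Idh3g by -1.38 and -0.85. Of the 6 glycolysis genes, 5 had higher means in RFP-negative EtOH than in PBS neurons, beside 48.5% of all genes, with Pgam1 at 2.42 and Tpi1 at 2.42, while Aldoc differed by -2.13.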

How the data were processed

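Per the labels' protocols, the contents of single neurons went into SMARTer cDNA and Nextera XT libraries, which were sequenced as single reads of 51 cycles, demultiplexed with CASAVA 1.8 and filtered with the FASTX-Toolkit. Bowtie2, Cufflinks 2.2.1 and the build GRCm38 are named, without roles, in the submitters' processing notes. How the Cufflinks output became the deposited log-scale values, taken as log2, which cut-off selected the 1024 genes, and how reads with several matches were treated are not given in the sources used here. Read totals are not given either, so no interval that needs depth is printed. The design text counts 5 PBS neurons, whereas 6 are labelled, and all 6 were analysed. For PBS neurons the time course field speaks of EtOH, and the titles and the exposure field were followed instead. There were 0 columns of other samples.

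Groups were compared by differences of means of the deposited values, without p-values, since the labels name no animal. A value above 4 is called high, and differences of at least 1 in size were counted. The members and lists, and the limit of 4, were chosen with earlier results of these data known. Genes outside the 8 were named by rule: the 5 highest and 5 lowest in Pearson's r with the median of the 8 genes, and the 3 of each list with the largest difference between RFP-negative EtOH and PBS neurons. Of the genes so named or fixed as markers, 2 are not reported here. None of the listed nuclear complex II genes or of the annotated nuclear copies found for the 8 genes was in the table. Positions and transcripts are from GENCODE M21 (GRCm38), in which 1020 of 1024 identifiers were found. Similar transcripts were found with BLAST 2.17.0. Other steps used Python 3.11.15, numpy 2.4.6 and pandas 2.3.3, and were tested on simulated data. Other centres, scalings and subsets of neurons were tried.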

Additional observations from a re-analysis of the deposited data

Results flagged for a closer look

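In groups of 6 and 7 neurons, 49 quantities were checked for a neuron far from the rest of its group (98 checks), and 10 were found. The limit gives about 1 in 20 by chance for normally distributed values only. Many genes here were low in most neurons of a group and high in few, so 10 cannot be set against that rate. Among the 8 genes only mt-Nd1 in PBS neurons was found, where neuron 4 at 12.5 lay above the next at 10.6, just past the limit. The remainder are single neurons above the rest of their group in nuclear genes. In PBS neurons they are Bzw1 at 9.01 in neuron 6, Ndufb7 at 6.43 in neuron 2, Gfm2 at 7.63 in neuron 6, and Atp5d at 6.98, Mff at 10.3 and Idh3g at 5.90 in neuron 3. In RFP-negative EtOH neurons they are Dab1 at 5.34 in neuron 4, Gfm2 at 3.30 in neuron 6 and Trap1 at 5.45 in neuron 5.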

How the results depend on the processing

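For RFP-negative EtOH against PBS neurons, the difference of the per-neuron medians (-2.73) lay between -3.49 and -0.94 under the other settings and between -3.39 and -2.08 when single neurons were left out. For RFP-positive EtOH against PBS neurons (-3.26) it lay between -4.63, with group medians, and -1.28, with arithmetic means, and between -3.59 and -3.03 when single neurons were left out. Between the EtOH groups (-0.54) it lay between -2.26, with group medians, and 0.06, without mt-Nd4 and mt-Co1, and was -1.19 without neurons with high Gad1 and -1.05 at a common upper quartile. The sign changed for some single genes. With group medians, mt-Cytb differed by 0.66 in RFP-negative and by 0.60 in RFP-positive EtOH neurons against PBS neurons, mt-Atp8 by 0.42 in RFP-positive EtOH against PBS neurons and mt-Nd2 by -0.76 between the EtOH groups. With arithmetic means mt-Cytb differed by 0.052 in RFP-negative EtOH against PBS neurons. Without neurons with high Mbp, RFP-negative EtOH against PBS neurons gave 0.10 for mt-Nd4 and 0.43 for mt-Rnr1, and RFP-positive EtOH against PBS neurons gave 1.46 for mt-Rnr1, which was 0.16 with arithmetic means. The cause was not tested. The count of genes lower by at least 1 between the EtOH groups (2) was 0 at a limit of 2, 1 without neurons with high Mbp, and 1 to 2 when single neurons were left out. Against PBS neurons it was 5 to 8 for RFP-negative and 7 to 8 for RFP-positive EtOH neurons. The mean number of high members differed from that of PBS neurons by -2.50 in RFP-negative and -2.63 in RFP-positive EtOH neurons. These differences were -1.69 and -1.63 at a limit of 3 in place of 4, and -2.31 and -2.90 at a limit of 5. The median correlation (0.36) stayed between 0.30 and 0.38 when single neurons were left out. The alternatives on the number of high members, the counts without subsets of neurons or single neurons, the scaling of the correlation to nuclear values and the omission of mt-Nd4 and mt-Co1 were chosen after seeing the data. No paired analysis was possible because no test was made and the replicate numbers only name neurons. The depth is unknown, so how far it limits low values cannot be told.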
